A study of Mus musculus with 2 samples.

Results

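The nuclear-encoded genes of the respiratory chain were compared between cultured mouse hepatocytes given an shRNA against the histone demethylase JMJD3 (encoded by Kdm6b) and cells given control lentivirus. The genes were found by name among 23284 gene models: all whose symbol starts with Nduf followed by a, b, c, s or v, with Uqcr, with Cox and a digit from 4 to 8, or with Atp5, together with Sdha to Sdhd, Cyc1 and Cycs. The rule takes 92 genes. Of these, 36 encode subunits of complex I, 4 of complex II, 9 of complex III, 19 of complex IV and 15 of complex V, and 1 encodes cytochrome c. The other 8 carry a name of this kind without being subunits: the complex I assembly factors Ndufaf1, Ndufaf2, Ndufaf3 and Ndufaf4, the supercomplex factor Cox7a2l, and Atp5s, Atp5sl and Cox4nb. The rule uses names only, but it was chosen with earlier results of these data known.

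The study holds 2 libraries, 1 per group, each from primary hepatocytes of C57BL/6 mice with the cells of 5 animals pooled. Control lentivirus or lentivirus carrying the JMJD3 shRNA was added 24 h after plating and left for 48 h. Both cultures, controls included, then received 5 mM glucose and forskolin (10 µM), which activates adenylyl cyclase, for 6 h as a model of fasting. Both groups are thus infected, stimulated cultures, and with 1 library per group a difference between the cultures cannot be told apart from the knockdown. The series title concerns mitochondrial fatty acid beta-oxidation, whose electrons enter the chain described here.

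The respiratory chain sits in the inner mitochondrial membrane. Complex I takes electrons from NADH, complex II from succinate, and coenzyme Q carries them to complex III, from where cytochrome c hands them to complex IV, which reduces oxygen. Complexes I, III and IV pump protons, and complex V, the ATP synthase, lets them flow back to make ATP. Most subunits are encoded in the nucleus, a small hydrophobic core is encoded by mitochondrial DNA, and several subunits of complexes IV and V exist in isoforms with different tissue ranges. Nuclear chain genes are known targets of the transcription factors NRF1, GABPA, YY1 and the estrogen-related receptors, with PGC-1 coactivators.

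The control library held 11099562 counts and the knockdown library 18334366. The 92 genes took 1.003% of the counts in control and 0.703% in knockdown. Values are counts scaled to a common library total (CPM), corrected for composition by TMM factors, and levels of different genes are compared only as CPM per kb of exon length. A gene counted as measured when its mean CPM over both libraries was at least 1. With 1 library per group there is no replicate error, so no test is given. A gene was called lower or higher when it differed by 1.5-fold or more and the exact binomial 95% interval of its ratio excluded 1, which covers counting error only. Kdm6b itself was at 90.7 CPM in control and 33.0 CPM in knockdown, a log2 ratio of -1.46 (-1.60 to -1.31).

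Of markers checked against the label, 14 of 16 hepatocyte genes were measured, among them albumin at 1519 CPM in control, while Cyp2e1 had 0 counts in both libraries and Fabp1 2 in each. Hepatocyte markers summed to 15715 CPM in control and 9350 CPM in knockdown, with 9 of 14 called lower and 1 higher. The 14 disagreed widely, from Cps1 at a log2 ratio of -5.85 to Apob at 0.78, the marker called higher. Trf, the most abundant of them in control, was at 4282 CPM in control and 4254 CPM in knockdown (-0.01). Macrophage markers summed to 27.6 and 29.0 CPM with 5 of 11 measured, 0 called lower or higher, and Clec4f at 0 in both. Endothelial markers summed to 59.9 and 57.0 CPM with 8 of 10 measured, 2 called lower and 1 higher. Stellate and fibroblast markers summed to 256 and 240 CPM with 9 of 10 measured, 3 called lower and 0 higher. Of all measured genes, 12.8% were called lower and 15.3% higher. Cholangiocyte markers summed to 8101 and 8434 CPM with 7 of 8 measured, almost all of it Spp1. Of those 7, 3 were called higher and 0 lower: Krt7 at a log2 ratio of 1.65, Krt19 at 0.60 and Sox9 at 0.59. Most hepatocyte markers and some endothelial, stellate and fibroblast markers thus moved the same way as the chain genes. Some cholangiocyte markers and 1 endothelial marker moved the opposite way. The part of any of these cell types in the result was not tested. In a bulk culture, fewer hepatocytes and a changed level of single transcripts within each hepatocyte cannot be told apart.

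Because most chain genes lay on the same side of control, stretches of promoter are shown for 4 of them, chosen to display matches for NRF1, CREB, GABPA and ERR upstream of the start and, for Cox7a2, because it had the lowest ratio of all measured members. RefSeq start sites (build GRCm38.p6, which differs from the mm9 build of the counts) were matched for 75 of the 92 genes. Each sequence gives the 250 bases upstream of the start, 5′ to 3′ on the gene's strand, with motif matches in capitals. The letters searched on both strands were GCGCATGCG for NRF1, CCGGAAGT for GABPA, AAGATGGCG for YY1, TCAAGGTCA for estrogen-related receptors (ERR) and TGACGTCA for CREB.
Cycs, chr6:50566570-50566819, minus strand, with a CREB match 169 and an NRF1 match 61 bases before the start: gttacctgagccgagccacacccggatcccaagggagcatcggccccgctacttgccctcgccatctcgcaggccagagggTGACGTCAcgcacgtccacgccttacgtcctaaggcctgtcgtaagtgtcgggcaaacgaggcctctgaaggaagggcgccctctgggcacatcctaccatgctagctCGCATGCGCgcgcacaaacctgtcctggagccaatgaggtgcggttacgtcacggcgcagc
Uqcr11, chr10:80406822-80407071, minus strand, with a GABPA match 66 bases before the start: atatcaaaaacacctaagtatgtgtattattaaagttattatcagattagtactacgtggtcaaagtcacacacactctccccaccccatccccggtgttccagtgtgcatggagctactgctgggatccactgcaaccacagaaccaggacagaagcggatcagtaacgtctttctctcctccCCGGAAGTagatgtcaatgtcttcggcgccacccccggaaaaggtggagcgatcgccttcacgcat
Atp5g3, chr2:73911327-73911576, minus strand, with an ERR match 52 bases before the start: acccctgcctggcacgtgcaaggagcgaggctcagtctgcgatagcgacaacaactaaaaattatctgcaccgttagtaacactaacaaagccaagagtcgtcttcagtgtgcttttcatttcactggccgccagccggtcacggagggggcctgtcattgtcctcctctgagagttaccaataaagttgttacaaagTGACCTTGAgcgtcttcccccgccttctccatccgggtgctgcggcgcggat
Cox7a2, chr9:79759854-79760103, minus strand, with none of these letters in the window: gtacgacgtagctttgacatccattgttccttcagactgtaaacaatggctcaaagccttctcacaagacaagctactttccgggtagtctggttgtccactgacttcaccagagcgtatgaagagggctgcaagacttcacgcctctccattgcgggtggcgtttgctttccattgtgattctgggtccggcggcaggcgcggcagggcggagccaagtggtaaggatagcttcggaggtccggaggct

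In windows of 300 bases, which add 50 bases after the start, the NRF1 letters stood in 10 of 71 measured members with a promoter (14.1%) and in 4.09% of 10034 measured genes. YY1 letters stood in 8 members (11.3%, against 3.59%), CREB letters in 5 (7.04%, against 3.63%) and ERR letters in 2, Sdhd and Atp5g3 (2.82%, against 0.329%). GABPA letters stood in 5 members (7.04%) and in 9.26% of measured genes. Over all 27025 genes with a promoter the shares were 1.95% for NRF1, 4.31% for GABPA, 1.64% for YY1, 0.466% for ERR and 2.03% for CREB. Members with and without the NRF1 letters had median log2 ratios of -0.48 and -0.54, and those with and without the YY1 letters -0.59 and -0.53. The CREB medians were -0.49 and -0.54, the GABPA medians -0.63 and -0.53, and the ERR medians -0.53 and -0.54. A match is a description of the letters and not a binding site.

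Chain transcripts were lower in the knockdown library in nearly every member measured, by a small and similar amount. Of 84 measured genes, 83 had a ratio below 1, where 50.3% of measured genes with counts in both libraries did. This uniform direction was not particular to the chain, since 73 of 75 measured cytosolic ribosomal protein genes also had a ratio below 1. The rule of size called 31 of the 84 lower, against a background of 12.8% of 12607 measured genes, and 0 higher, against 15.3%. For 78 members the counting interval lay wholly below 1, as it did for 32.4% of measured genes with counts in both libraries, and for 6 it included 1. Their median log2 ratio was -0.53, a fold of 0.692, with a standard deviation over genes of 0.21, whereas the median over all measured genes was -0.004 and their standard deviation 0.84. The summed level of the 92 genes was 9907 CPM in control and 7114 CPM in knockdown.

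The number called depends on where the fold limit lies, since it stands close to the members' median. At a looser log2 limit of -0.32, in place of -0.58, 71 members were lower, against 23.0% of measured genes, and at 2-fold only Cox7a2 was, against 6.15%. The member called with the smallest change was Cox6a1 at -0.59, and Cox6c and Cox4i1, both at -0.57, fell outside. In the authors' deposited table, 84 members are listed and 38 have an adjusted p-value under 0.05 with a negative fold, against 11.8% of its 12838 genes, with 0 positive, against 14.6%. The test behind that table is not given in the sources used here. It called 30 of the 31 genes called lower here, all but Ndufb4.

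**Figure D1:**
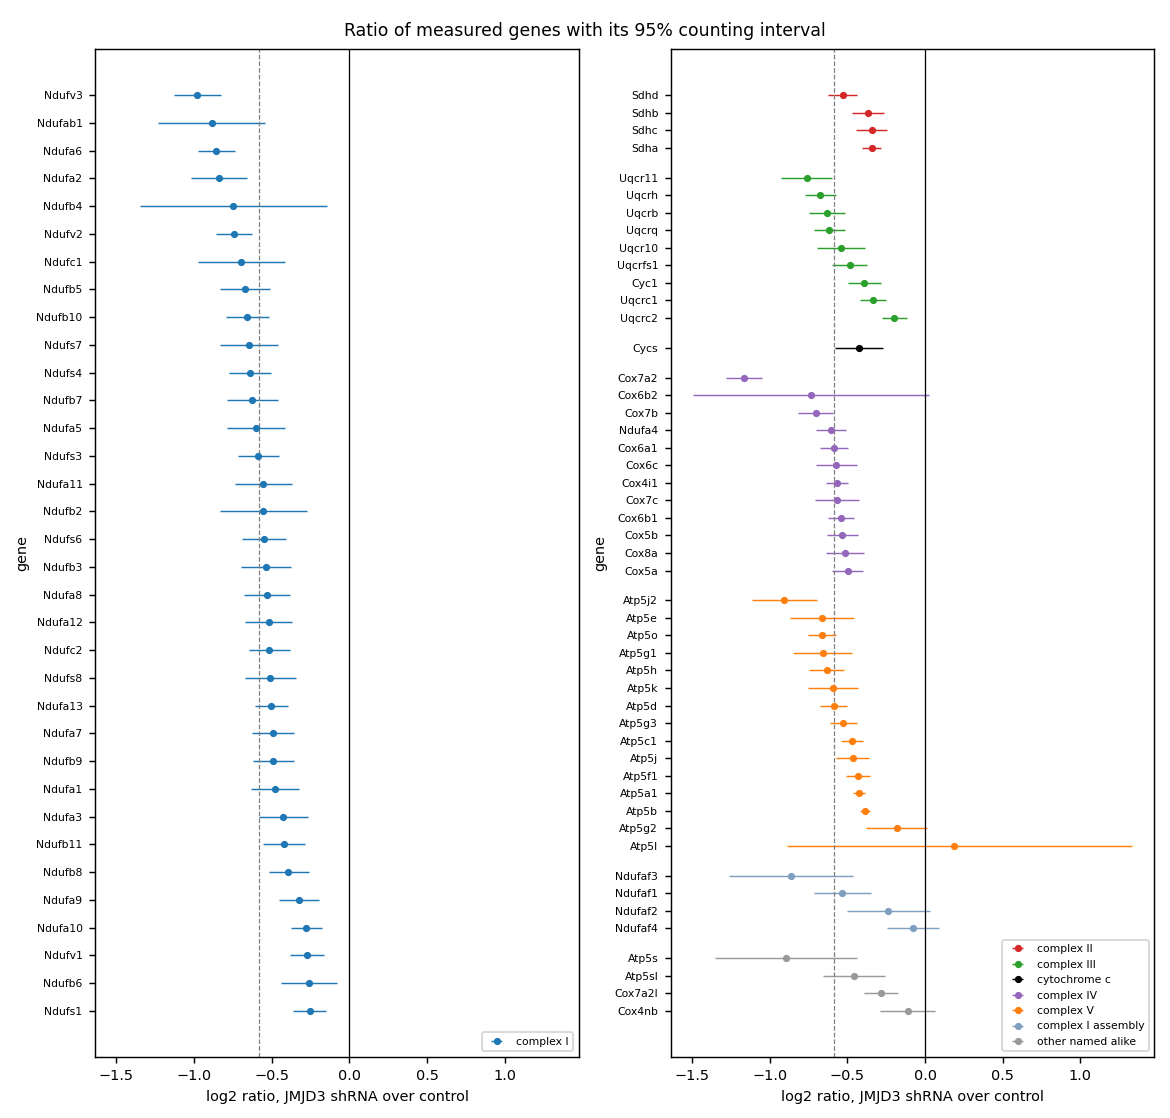
Log2 ratio of JMJD3 shRNA over control (x axis) for 83 of the 84 measured genes (y axis), grouped by complex. Points are single-library ratios and bars their exact binomial 95% counting intervals, the solid line is no difference and the dashed line 1.5-fold lower. Cox7a2 lies farthest left at -1.17, and Atp5l alone lies right of 0, at 0.19.

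Exon length moved with the ratio across all measured genes, and the chain genes are short, with a median exon length of 746.5 bp against 2871 bp. The 12600 measured genes with counts in both libraries were put in 10 classes by length. In the shortest class (59 to 1183 bp), the 1202 genes other than chain genes had a median log2 ratio of -0.34, with 20.9% called lower. The 58 chain genes of that class had a median of -0.57, with 27 called lower, and 53 of them lay below the median of the other genes. In the next class (1184 to 1641 bp) the medians were -0.19 for other genes and -0.49 for 14 chain genes, all 14 of which lay below. The longest class, without a chain gene, had a median of 0.36.

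With a smooth trend of ratio on length subtracted, the members' median became -0.17, and 78 of 84 lay below the trend, where 51.3% of all measured genes did. Only 4 were then called lower, against 11.8% of all measured genes: Cox7a2 at -0.81, Ndufv3 at -0.83, Atp5s at -0.73 and Ndufaf3 at -0.60. The complexes then stood at -0.16 for I, -0.22 for II, -0.16 for III, -0.12 for IV and -0.26 for V, so complex IV was no longer the lowest and complex II no longer the nearest to 0. The 6 genes above the trend were Atp5l, Atp5g2, Ndufb6, Ndufaf2, Ndufa3 and Ndufb8. The 31 measured subunits under 600 bp had a median of -0.59 before and -0.11 after subtraction, and the 20 at or above 1200 bp had -0.43 and -0.29. Whether the relation with length comes from the RNA, the library preparation or the cells was not tested.

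**Figure D2:**
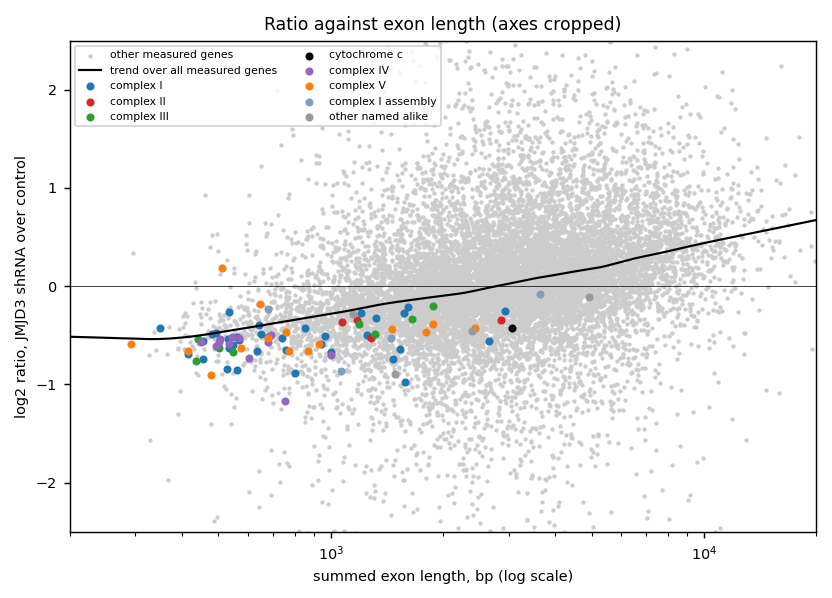
Log2 ratio (y axis) against summed exon length in bp (x axis, log scale) for the measured genes, with chain genes coloured by complex, other genes in grey and the smooth trend over all measured genes as a black line. Axes are cropped. Short genes lie lower than long ones, and 78 of 84 chain genes lie below the trend.

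Ribosomal proteins offer another set of short, abundant transcripts. By the rule of size, 12.8% of all measured genes were lower and 15.3% higher. Of 76 mitochondrial ribosomal protein genes, 8 (10.5%) were lower and 0 higher. Their median was -0.34 before and -0.08 after the trend was subtracted. Of 75 measured cytosolic ribosomal protein genes, 4 (5.33%) were lower and 0 higher by the rule, and the same medians were -0.34 and -0.003. A ratio below 1 was found for 66 of the 76 mitochondrial and 73 of the 75 cytosolic genes. The counting interval lay wholly below 1 for 53 and 71 of them. Over measured genes with counts in both libraries these shares were 50.3% and 32.4%. A narrow spread was not particular to the chain either. The standard deviation over genes was 0.27 for the mitochondrial set, 0.15 for the cytosolic set and 0.21 for the chain genes. The median of the chain genes was lower than that of both sets on each scale, at -0.53 and -0.17, with no test of the difference.

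Complex I, the entry point for NADH, was lower in all 35 measured subunits, with 14 called lower and a median log2 ratio of -0.54. The counting interval lay wholly below 1 for each of the 35, against 32.4% of measured genes, and the rule of size called 12.8% of measured genes lower. The lowest was Ndufv3, an accessory subunit of the NADH-oxidising tip, with 72.7 CPM in control and 36.9 CPM in knockdown. Its log2 ratio was -0.98 (-1.13 to -0.83), and its mm9 position is chr17:31657060-31668270, plus strand. Next came Ndufab1, the mitochondrial acyl carrier protein that is also a subunit, at 13.8 CPM in control and 7.46 CPM in knockdown. Ndufa6 was at 106 and 58.8 CPM and Ndufa2 at 47.8 and 26.7 CPM, giving log2 ratios of -0.86 and -0.84. These 4 genes are supernumerary subunits, which surround the catalytic core.

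Of the 7 core subunits, which carry out electron transfer from NADH, 3 were called lower, against 12.8% of all measured genes. Ndufv2 was the lowest, with 109 CPM in control against 65.2 CPM. Ndufs7 at -0.65 and Ndufs3 at -0.59 were also called lower. Among those not called were Ndufs8 at -0.51, Ndufv1, which binds NADH, at -0.27 and Ndufs1 at -0.26. The median was -0.51 over the core and -0.54 over 28 measured accessory subunits. The core genes were also the longer ones, with a median exon length of 1472 bp against 601 bp. With the length trend subtracted, the median was -0.27 over the core and -0.14 over the accessory subunits.

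By position in the complex, the 16 matrix-arm subunits had a median of -0.57 with 8 called lower. The 18 measured membrane-arm subunits had a median of -0.52 with 5 called lower, and 12.8% of all measured genes were called lower. Other matrix-arm genes called lower were Ndufs4 at -0.64 and Ndufa5 at -0.60. In the membrane arm these were Ndufb4 at -0.75, Ndufc1 at -0.69, Ndufb5 at -0.67, Ndufb10 at -0.66 and Ndufb7 at -0.63. The highest in that arm was Ndufb6, at 39.3 CPM in control and 32.8 CPM in knockdown, a log2 ratio of -0.26. The accessory subunits of complex I that were not called lay between -0.56 for Ndufa11 and -0.26 for Ndufb6. Per kb of exon the most abundant complex I transcripts in control were Ndufa6 at 190 CPM per kb and Ndufa7 at 154 CPM per kb, and both were lower in knockdown, at 105 and 110 CPM per kb.

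The assembly factors of complex I, which chaperone its construction and do not stay in it, were less uniform. Ndufaf3 was called lower, from 10.2 to 5.63 CPM (log2 -0.86), and Ndufaf1 stood at -0.53. Ndufaf2 at -0.24 and Ndufaf4 at -0.08 had intervals that included 1. Of 9 further complex I assembly genes measured, such as Acad9, 0 were called lower or higher, and their median was -0.23. The highest of these was Nubpl, which delivers iron-sulfur clusters, at 0.19 (-0.20 to 0.60), and the lowest Foxred1 at -0.57 (-0.76 to -0.38). Of the other members that are not subunits, Atp5s, a coupling factor of the ATP synthase, was called lower, from 8.01 CPM in control to 4.31 CPM in knockdown (-0.89). Atp5sl was at -0.46 and Cox4nb, which belongs to a complex of the endoplasmic reticulum, at -0.11 with an interval that included 1.

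Complex II, the succinate dehydrogenase shared with the tricarboxylic acid cycle, had the median log2 ratio nearest 0 among the complexes, at -0.36, and 0 of its 4 genes were called lower. Sdha, the flavoprotein that oxidises succinate, was at 351 CPM in control and 277 CPM in knockdown, a log2 ratio of -0.34 (-0.40 to -0.28). The iron-sulfur subunit Sdhb was at 125 and 97.1 CPM (-0.37), and the membrane anchor Sdhc at 127 and 100.4 CPM (-0.34). The other anchor, Sdhd, was lowest at 163 and 113 CPM, a log2 ratio of -0.53 (-0.62 to -0.44). Per kb of exon the 4 transcripts were at nearly the same level, from 108 to 127 CPM per kb in control. With 4 genes and 1 library per group, a difference of complex II from the other complexes was not tested.

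Complex III passes electrons from coenzyme Q to cytochrome c. It had a median of -0.54 over 9 genes, with 4 called lower, against 12.8% of all measured genes. Those 4 were small accessory subunits: Uqcr11 at -0.76, Uqcrh at -0.67, Uqcrb at -0.63 and Uqcrq at -0.62. Uqcr11 had 56.4 CPM in control and 33.2 CPM in knockdown. The most abundant per kb were Uqcrq, at 279 CPM per kb in control and 182 in knockdown, and Uqcrh, at 275 and 172 CPM per kb. The nuclear-encoded redox subunits were Cyc1, the haem-bearing cytochrome, with 118 CPM against 89.7 CPM (-0.39), and Uqcrfs1, the Rieske iron-sulfur protein, with 111 CPM against 79.3 CPM (-0.49). The large scaffold subunits Uqcrc1 at -0.34 and Uqcrc2 at -0.20 differed least. With the length trend subtracted, Uqcr10 at -0.04 and Uqcrc2 at -0.09 lay nearest 0, and Uqcrc1 was at -0.20. The mobile carrier Cycs stood at 55.0 CPM in control and 40.9 CPM in knockdown, a log2 ratio of -0.43 (-0.58 to -0.27).

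Complex IV, cytochrome c oxidase, had the lowest median of the 5 complexes, at -0.57 over 12 measured genes. Of these 12, 4 were called lower, against 12.8% of all measured genes. All 12 ratios lay below 1, between -1.17 and -0.50. Cox7a2, a small accessory subunit, had the lowest ratio of all measured members, with 129 CPM in control and 57.4 CPM in knockdown. Its log2 ratio of -1.17 (-1.28 to -1.05) made it 2.24-fold lower. The authors' deposited table lists it at a log2 fold change of -1.17 and an adjusted p-value of 9.8e-07. Its mm9 position is chr9:79603048-79607660, minus strand, and no stretch of 100 bases of its transcript recurred in another annotated transcript. Cox7b at -0.70, Ndufa4 at -0.61 and Cox6a1 at -0.59 were also called lower. Ndufa4 was named as a complex I subunit and is now counted in complex IV.

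The other 8 measured genes of complex IV were not called. Cox6c, Cox4i1, Cox7c, Cox6b1, Cox5b, Cox8a and Cox5a lay within a narrow span from -0.57 to -0.50. Cox4i1, the regulatory subunit that binds ATP, was the most abundant of the complex at 437 CPM per kb in control and 295 CPM per kb in knockdown, followed by Cox6b1 at 406 and 279 CPM per kb. Cox6b2 was at -0.73 on 32 and 31 counts, with an interval of -1.49 to 0.03. Cox7a2l, the supercomplex factor that resembles Cox7a2 in name, was at 107 CPM in control and 88.1 CPM in knockdown (-0.28). Its counting interval did not reach that of Cox7a2.

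Complex V, the ATP synthase, had a median of -0.53 over 15 genes with 7 called lower, against 12.8% of all measured genes. Atp5b, the catalytic beta subunit, was the most abundant of all members at 720 CPM per kb in control and 550 CPM per kb in knockdown. It had 15207 and 18723 counts and a log2 ratio of -0.39 (-0.42 to -0.36). Its partner in the catalytic head, Atp5a1, stood at 339 and 252 CPM per kb, a log2 ratio of -0.43. In the head and central stalk Atp5c1 was at -0.47, and Atp5d at -0.59 and Atp5e at -0.66 were called lower. In the peripheral stalk, which holds the head still, Atp5o at -0.66 and Atp5h at -0.63 were called lower, while Atp5j was at -0.47 and Atp5f1 at -0.43.

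The membrane part of complex V showed the widest spread, from -0.90 to 0.19 over 6 genes. Atp5j2, the f subunit, was lowest with 35.7 CPM in control and 19.1 CPM in knockdown, a log2 ratio of -0.90 (-1.12 to -0.69). Atp5k, the e subunit, was called lower at -0.59. Atp5l, the g subunit, was the single member with a ratio above 1, at 1.07 and 1.22 CPM, but it rests on 12 and 22 counts and its interval ran from -0.89 to 1.34. At 2.08 CPM per kb it was also the lowest measured member in control. Of the 100-base stretches of its annotated transcript, 69.0% recurred in transcripts of other genes, 5 of them processed pseudogenes. The counting was run without an option to count reads that map to several places, so the level and ratio of Atp5l are uncertain.

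**Figure D3:**
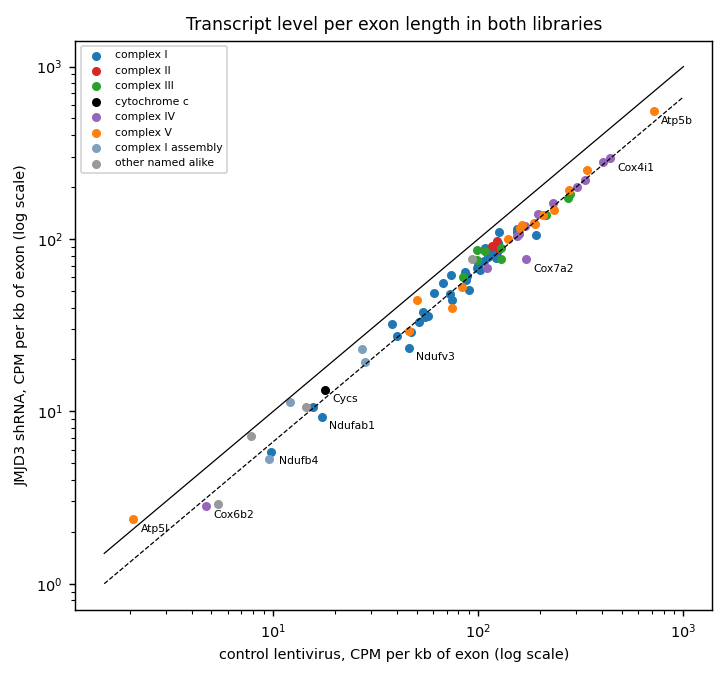
Level of each measured gene in control (x axis) and knockdown (y axis), as CPM per kb of exon, both on log scales, coloured by complex. The solid line marks equal levels and the dashed line 1.5-fold lower. Every point but that of Atp5l, at 2.08 CPM per kb in control, lies below the line of equal levels, and the highest is Atp5b at 720 CPM per kb in control.

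The order of transcript levels was nearly the same in both libraries (Spearman's rho 0.98 over 84 genes, which share the libraries and exon lengths). Within complexes the spread of levels was wide, from 9.80 to 190 CPM per kb for measured complex I subunits in control. Ndufb4 was the lowest, followed by Ndufa11 at 15.6 CPM per kb and Ndufab1 at 17.2 CPM per kb. These levels depend on the gene model. The exon lengths used were 454 bp for Ndufb4, 2661 bp for Ndufa11 and 800 bp for Ndufab1. Their matched GENCODE transcripts have 971, 918 and 552 bases. Of the 100-base stretches of Ndufab1, 62.7% recurred in other annotated transcripts, as did 33.4% of those of Ndufb4 and 0% of those of Ndufa11. Of 91 members matched to a GENCODE transcript, 28 shared at least 1 such stretch and 63 shared none, and among the 56 of the latter that were measured the median log2 ratio was -0.54. Ndufs5, an accessory subunit of complex I, had 0 counts in both libraries. In the gene models used, 484 of its 509 exon bases coincide with the model BC002163, and the counting was run without an option to assign reads that overlap several genes, so its count gives no measure of its transcript. A further 9 members overlap an exon of another gene, among them Atp5j, which shares 123 bases with Gabpa, the gene of an ETS factor that binds chain promoters.

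Of the 8 tissue isoforms of complex IV subunits, 7 were nearly absent from both libraries. Cox4i2, Cox6a2, Cox7a1, Cox7b2, Cox8b, Cox8c and Ndufa4l2, found mainly in muscle, lung, testis or under hypoxia, each had under 10 counts in both libraries, so their ratios are not given. Per kb of exon, Cox7a1 made up 1.27% of the Cox7a1 and Cox7a2 total in control, on 9 counts, and 0.787% in knockdown, on 4 counts. Cox4i2 made up 0.0839% and 0.129% of the Cox4i total, on 3 and 5 counts. Cox6a2 had 2 counts in each library, Ndufa4l2 1 in each, Cox7b2 2 in control and 0 in knockdown, and Cox8b 0 in control and 1 in knockdown. Cox6b2, the testis form of Cox6b, was the exception, with 32 counts in control and 31 in knockdown, which made up 1.15% and 1.005% of the per-kb Cox6b total. Cox8c had 0 counts in both, and 3 counts would equal 0.267 CPM in control and 0.166 CPM in knockdown. The muscle genes Ckm, Mb, Myl1, Tnnt3 and Myh7 had 0 counts in both libraries, with only Acta1 and Actc1 measured among 9 muscle genes sought, and 0 counts were also found for Cyct, the testis form of cytochrome c.

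The 3 genes for the c subunit of complex V, which encode the same mature protein with different import signals, did not move alike. Atp5g3 was the main source, with 74.2% of the per-kb total in control and 72.3% in knockdown. Atp5g1 went from 40.0 CPM in control to 25.3 CPM in knockdown and was called lower (-0.66), and Atp5g3 from 188 CPM to 131 CPM (-0.53). Atp5g2 was at 32.7 CPM and 28.8 CPM, a log2 ratio of -0.18 with an interval of -0.38 to 0.01. As a share of the summed CPM of the 3 genes, Atp5g2 made up 12.5% in control (Clopper-Pearson 95% interval 11.3 to 13.8%) and 15.6% in knockdown (14.3 to 16.8%). These intervals did not overlap, but they cover counting error only, and 48.1% of the 100-base stretches of Atp5g1 and 41.4% of those of Atp5g2 recur in transcripts of other genes, so the ratios and shares of both are uncertain. Atp5g3 shared no such stretch.

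**Figure D4:**
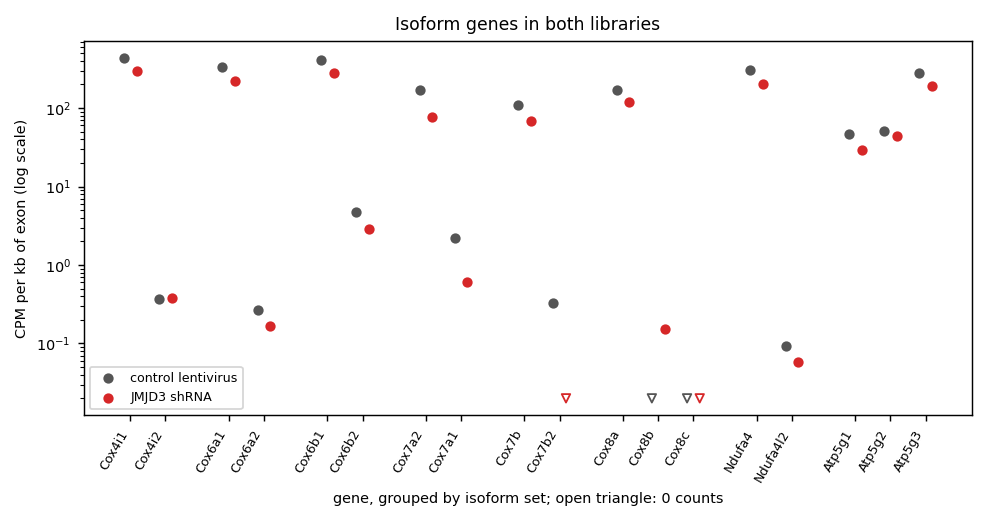
Level in CPM per kb of exon (y axis, log scale) of isoform genes (x axis, grouped by isoform set) in the control and knockdown libraries, each point 1 library. Open triangles mark 0 counts. In each set of complex IV 1 gene stands far above the others, while the 3 Atp5g genes lie closer together with Atp5g3 highest.

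Genes that work with the chain did not all go the same way. Of 17 measured regulators of chain genes, 1 was called lower and 5 higher, against 12.8% and 15.3% of all measured genes. The median of the regulators was 0.23. Ppargc1a, the fasting-induced coactivator PGC-1 alpha, was at 50.1 CPM in control and 24.4 CPM in knockdown, a log2 ratio of -1.04 (-1.22 to -0.85). Pprc1, a related coactivator, was at 36.7 CPM and 112 CPM, a log2 ratio of 1.60 (1.45 to 1.76). Myc (90.6 CPM in control and 256 CPM in knockdown), Nrip1 (19.2 and 50.7 CPM), Sp1 (log2 0.75) and Hcfc1 (0.64) were also called higher, while Nrf1 at 0.10, Gabpa at 0.23, Tfam at 0.05 and Esrra at -0.19 were not called. Regulators have long transcripts, with a median exon length of 3918 bp.

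Coenzyme Q synthesis, which makes the carrier between complexes I or II and III, had 7 of 15 measured genes called lower and 0 higher. The shares over all measured genes were 12.8% and 15.3%. The median of the list was -0.36. Adck3, an atypical kinase of the pathway, was at 95.9 CPM in control and 11.98 CPM in knockdown, with an interval of the log2 ratio from -3.22 to -2.79, and 365 of its exon bases overlap another gene. The hydroxylase gene Coq7 was at -0.84, and Coq9, Coq3, Coq10a, Adck4 and Fdxr lay between -0.95 and -0.66. The highest of the list was Pdss1, which makes the side chain, at 0.52. Of 29 measured assembly factors of complexes II to V, 3 (10.3%) were called lower and 0 higher. The lower share was not above that of all measured genes. The median of these assembly factors was -0.21. The 3 were Cox17, a copper chaperone of complex IV, at -0.88, Sdhaf1 at -0.72 and Cox19 at -0.63, and the highest was Tmem70, an assembly factor of complex V, at 0.33.

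Of 17 measured genes for other electron entries and ADP exchange, 2 (11.8%) were called lower and 1 (5.88%) higher. Neither share was above that of all measured genes, at 12.8% and 15.3%. The median of the list was -0.15. Gpd2, the mitochondrial glycerol phosphate dehydrogenase, was at -1.26 and Chdh, choline dehydrogenase, at -1.15. The gene called higher was Aox1 at 0.84, which encodes a cytosolic aldehyde oxidase and is not an entry to the chain. Etfdh, through which fatty acid oxidation feeds coenzyme Q, was at 141 CPM in control and 128 CPM in knockdown (-0.15). The ADP/ATP carriers Slc25a4 at -0.26 and Slc25a5 at -0.29 were below 1 but not called. The 13 chain genes of mitochondrial DNA are not among the gene models, so the mitochondrially encoded core is not analysed here.

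**Figure D5:**
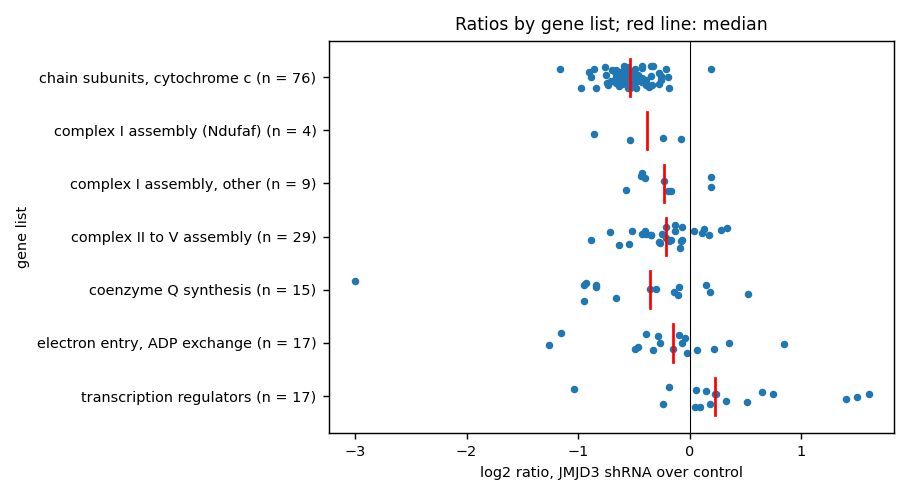
Log2 ratio of JMJD3 shRNA over control (x axis) for the measured genes of each list (y axis), each point 1 gene and the red line the median. Chain subunits of all complexes and cytochrome c are pooled in a single row, which runs from -1.17 to 0.19. The median of every list but the regulators lies left of 0, and the regulators spread from -1.04 to 1.60.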

How the data were processed

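Each group had 1 library of paired-end reads. The submitters' processing notes, which give no role or order, name STAR 2.5.3a, edgeR, FastQC 0.11.5, bcl2fastq 2.17.1.14, Trimmomatic 0.36 and build mm9. Per the file headers, the deposited counts per gene came from featureCounts 1.4.6-p4 on UCSC mm9 gene models, without strand and without a pair option, so mates may count separately and reads of overlapping genes cannot be split. The authors' deposited table gives log2 fold changes, p-values and adjusted p-values. The spread behind them is not given in the sources used here.

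From the counts, CPM used TMM factors (edgeR 4.0.16, R 4.3.3). Genes with a mean CPM of at least 1 were measured. Ratios carry exact conditional binomial 95% intervals (Clopper-Pearson), which cover counting error only, since reads without molecular identifiers are not independent molecules. The call needed 1.5-fold and an interval excluding 1. The rule for named genes took complex II, cytochrome c, the core of complex III, the 2 most abundant per length and the lowest and highest ratio of each complex, all called members, isoform sets, members under 10 counts, and the lowest and highest gene of each pathway list. Further names were chosen after their values were seen. A member enters counts and medians but is not reported here by itself. The length trend was a lowess fit (span 0.3) on log2 exon length. Ratios and calls were tested on simulated data. Promoters came from RefSeq (GRCm38.p6), and shared 100-base stretches from GENCODE M21 transcripts. The genes and lists were chosen with earlier results of these data known. Alternatives were other scalings (including DESeq2 1.42.0 size factors), filters, fold limits, the length trend and leaving out overlapping or shared genes.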

Additional observations from a re-analysis of the deposited data

How the results depend on the processing

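The direction of the members' median and of the median of each complex held under every alternative run. Removing the length trend left 4 members lower instead of 31, with medians of -0.17 over members, -0.16 over subunits, -0.16 for complex I, -0.22 for II, -0.16 for III, -0.12 for IV and -0.26 for V. A log2 limit of -0.32 in place of -0.58 called 71 lower and a limit of 2-fold 1. Without division by exon length, the shares were 0.618% for Cox7a1 in control, 15.3% and 13.7% for Atp5g1 in control and knockdown, and 72.2% and 70.7% for Atp5g3. Library totals, DESeq2 size factors and the upper quartile moved the median of all genes to -0.04, 0.01 and -0.05, and neither they, nor other filters, nor leaving out 7 overlapping members, nor counting on 50% of the counts moved a count by over 1.5 times. Leaving out members with a shared 100-base stretch (57 left) was chosen after seeing the data and moved no median beyond its counting error. No paired analysis was possible because each group holds 1 library. Low counts limit the 8 members under 10 counts and Atp5l. Ndufs5, among those 8, is limited by exon overlap with another gene model, and Atp5l also by stretches shared with other transcripts. With no replicates the spread between cultures is unknown.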
